A study of Mus musculus with 7 samples.

Results

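The IFIT family was followed in 7 RNA libraries of cells sorted from irradiated B16 tumours, a mouse melanoma line. Its 6 members, of 56953 genes counted, were chosen by symbol as the Ifit genes of one cluster on mouse chromosome 19: Ifit2, Ifit3, Ifit1bl1, Ifit3b, Ifit1bl2 and Ifit1. All mice received radiotherapy of 8 Gy, and tumours were taken on day 5 after treatment. In one group (n = 3) the radiotherapy was combined with AAV-iIL12, an adeno-associated virus vector named for interleukin 12, and in the other (n = 4) with AAV-iLuc, the control vector. Live cells without the leukocyte marker CD45 and the endothelial marker CD31 were collected by sorting, and their poly(A) RNA was read with a strand-keeping kit. The 3 AAV-iIL12 titles carry the letters WT, which the labels do not explain and the AAV-iLuc titles lack. Mouse strain and age, and the promoter of either vector, are not given in the sources used here.

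IFIT proteins, named as interferon-induced proteins with tetratricopeptide repeats, are cytoplasmic proteins that bind RNA and are made in large amounts after interferon or virus signals. Ifit1 binds messenger RNA whose cap lacks methylation of the first nucleotide and keeps it from being translated, so host messages that carry that methyl mark are spared. Ifit2 and Ifit3 bind other IFIT proteins, Ifit2 also binds AU-rich RNA, and Ifit3b is a close copy of Ifit3. Type I interferon acts through the transcription factor complex ISGF3, which binds the interferon-stimulated response element (ISRE). Interferon gamma acts mainly at the gamma-activated site (GAS), and IRF1 and IRF3 can also bind ISRE sequences.

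The 6 genes lie within 99316 bp of chromosome 19, from 34528094 to 34627409 on GRCm39, as the files give them. Ifit2 (ENSMUSG00000045932) spans 34528094 to 34553819 and Ifit3 (ENSMUSG00000074896) spans 34560931 to 34566131, both on the plus strand. Ifit1bl1 (ENSMUSG00000079339) follows on the minus strand from 34570291 to 34579356. Ifit3b (ENSMUSG00000062488) is on the plus strand from 34585370 to 34590801. Ifit1bl2 (ENSMUSG00000067297), from 34594449 to 34618143 on the minus strand, and Ifit1 (ENSMUSG00000034459), from 34618271 to 34627409 on the plus strand, start head to head with 127 bases between them in the files. Values of these genes are sums over all annotated exons of the gene.

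Sequence before the start sites is shown because the family's members differed in how many ISRE-like matches it held. RefSeq start-site windows (GRCm38.p6, 250 bases before to 50 after each start) were found for all 6 genes, 9 windows in all. The ISRE-like core searched was GAAA, any 2 bases and GAAA (TTTC, any 2 bases and TTTC on the other strand), and 3.44% of 32851 windows of the same length held it. Of the 9 windows, 6 held a match, and 4 of these held 2 matches against 0.225% of all windows with at least 2. Capitals mark the matches, each sequence is on GRCm38.p6 and each is read 5′ to 3′ on the strand named.
Ifit1, chr19:34640744-34640870, plus strand, the interval between the first exons of Ifit1bl2 and Ifit1 in GENCODE vM21: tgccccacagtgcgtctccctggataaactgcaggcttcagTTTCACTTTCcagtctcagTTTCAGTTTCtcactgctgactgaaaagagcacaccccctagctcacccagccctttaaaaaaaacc
Ifit3, chr19:34583329-34583528, plus strand: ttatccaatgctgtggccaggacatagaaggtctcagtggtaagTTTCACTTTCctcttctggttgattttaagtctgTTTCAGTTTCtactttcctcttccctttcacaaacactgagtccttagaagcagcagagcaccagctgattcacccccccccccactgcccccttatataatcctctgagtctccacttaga
Ifit3b, chr19:34607757-34607956, plus strand: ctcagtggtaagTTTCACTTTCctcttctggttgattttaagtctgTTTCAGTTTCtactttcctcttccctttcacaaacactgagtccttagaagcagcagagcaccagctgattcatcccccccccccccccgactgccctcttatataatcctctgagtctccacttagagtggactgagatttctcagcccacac
Ifit1bl1, chr19:34601969-34602168, minus strand: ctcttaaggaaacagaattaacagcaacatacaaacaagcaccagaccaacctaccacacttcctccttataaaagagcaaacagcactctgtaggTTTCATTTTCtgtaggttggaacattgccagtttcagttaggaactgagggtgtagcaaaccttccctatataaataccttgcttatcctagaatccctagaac

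Ifit1 and Ifit1bl2 share 1 pair of matches, since both genes start beside that interval and point away from it. RefSeq places the Ifit1 start 18 bases further on than GENCODE vM21 and the Ifit1bl2 start at the same base, so that the RefSeq starts lie 145 bases apart. Counted from the RefSeq starts, the matches begin 104 and 85 bases before Ifit1 and 70 and 51 bases before Ifit1bl2. Ifit3 and Ifit3b carry the same 2 matched words, which begin 156 and 122 bases before the Ifit3 start and 188 and 154 bases before the Ifit3b start. Aligned to each other, the windows of Ifit3 and Ifit3b were identical in 258 of 274 columns (94.2%). Each of the 2 Ifit1bl1 windows held 1 match. Neither Ifit2 window held the ISRE-like core. The first Ifit2 window held 1 match to the GAS-like letters TTC, any 3 bases and GAA, which read the same on both strands and occur in 8.3% of all windows. No other IFIT window held the GAS-like letters. A match is a description of these letters, and its absence from a window says nothing about which factors bind the gene.

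The 7 libraries held 16356653 to 19080587 counts, and levels are given as CPM (counts scaled to a common library size) after TMM scaling. The 7 melanocyte markers summed to 27850 to 28740 CPM in AAV-iIL12 libraries and 22840 to 25990 CPM in AAV-iLuc libraries, without overlap. Pmel, Mlana and Mitf rose by 0.57, 0.38 and 0.25 in log2, and Dct, the most abundant marker in controls, was not called (edgeR adjusted p = 1.04e-05, 0.00472, 0.00573 and 0.383). Of 6 endothelial markers, Cdh5 and Emcn had 0 counts throughout and Pecam1, which encodes CD31, 8 counts in treated and 12 in control libraries, while Vwf stood at 20.5 and 21.9 CPM and made up nearly all of the list's sum of 15.2 to 26.7 CPM. The 7 fibroblast markers, which the sort would not remove, summed to 57.1 to 155 CPM in AAV-iIL12 and 82.9 to 288 CPM in AAV-iLuc libraries, led by Col1a1 and Col3a1, and none was called (edgeR adjusted p from 0.103 to 0.859). Of 5 plasmacytoid dendritic cell markers, Bst2 and Tcf4, which other cells also express, rose by 2.92 and 0.61, and Siglech had 0 and 2 counts. Keratinocyte markers had 4 counts in all, and erythroid markers, mostly Hbb-bs and Hba-a1, had 38. The part of any of these cells in the IFIT levels was not tested. AAV-iLuc replicate 1 stood apart from the other 3 control libraries in some interferon-responsive genes, Ifit2 being the only IFIT gene among them. The family is therefore given with and without that library below.

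Ifit2, Ifit3, Ifit3b and Ifit1 were higher in every AAV-iIL12 library than in any AAV-iLuc library, an arrangement found for 25.9% of all 13990 genes tested. The same genes rose at an edgeR adjusted p under 0.05, a call made in that direction for 23.5% of all genes tested. Their rises ranged from 7.06-fold for Ifit1 to 18.0-fold for Ifit3, where 2.38% of all genes tested were called higher by at least 4-fold (23.7% of them fell) and the median log2 fold change of all genes was -0.0053. Ifit1bl2 passed the low-count filter only through the treated group, so its call is given below as a description, and Ifit1bl1 had too few counts to be tested. IFIT genes together took 0.0751% to 0.111% of all counts in AAV-iIL12 libraries and 0.00662% to 0.0116% in AAV-iLuc libraries. In bulk RNA, a change in the share of cells that express a gene and a change in its RNA per cell cannot be told apart.

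**Figure D1:**
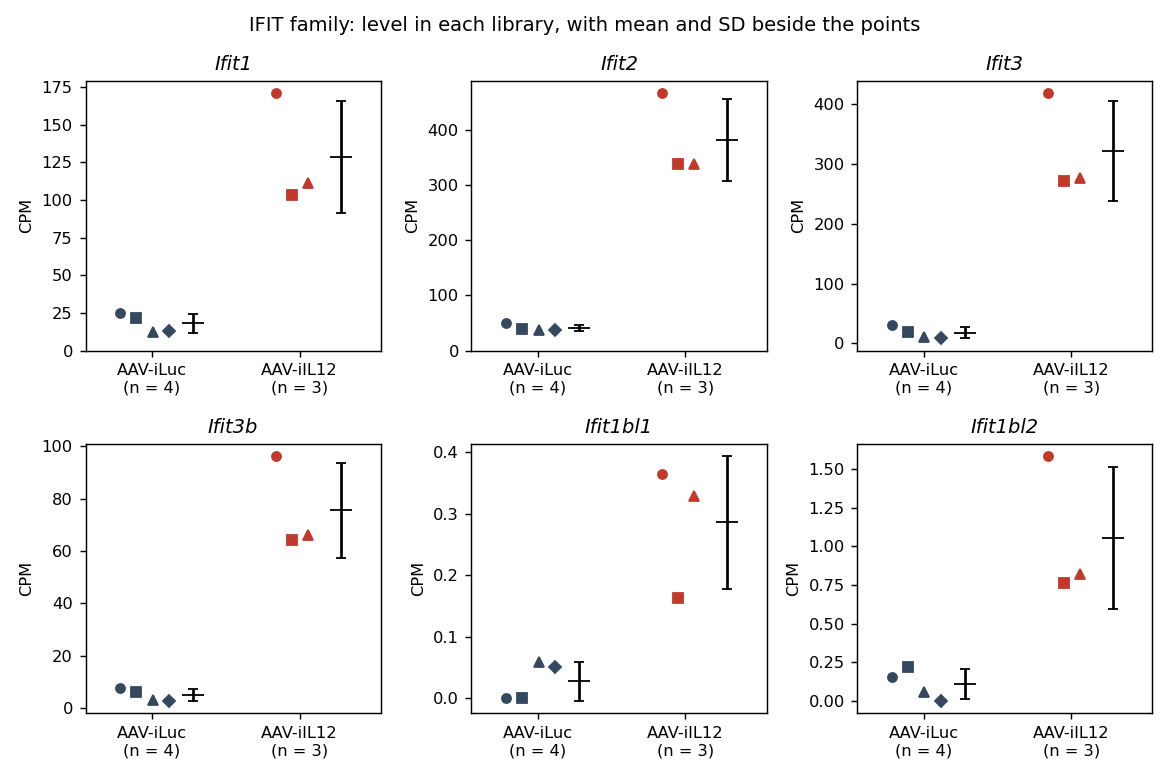
Level of each of the 6 IFIT genes in CPM, on a linear axis of its own for each gene, with 1 point per library (circle, square, triangle and diamond for replicates 1 to 4) and the group mean and SD beside the points. Every AAV-iIL12 point lies above every AAV-iLuc point of the same gene, and the axes of Ifit1bl1 and Ifit1bl2 span far lower levels than those of the other members.

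Ifit2, the RNA-binding member with no ISRE-like core in the windows searched, had the highest counts of the family. Its level was 466.8, 338.4 and 337.9 CPM in AAV-iIL12 replicates 1, 2 and 3, and 49.97, 39.37, 37.58 and 37.78 CPM in AAV-iLuc replicates 1, 2, 3 and 4. The lowest treated library was thus 6.76 times the highest control, and replicate 1 was the highest of its group in both. The mean of Ifit2 was 41.2 ± 5.92 CPM (SD, n = 4) in controls and 381 ± 74.3 CPM (SD, n = 3) in treated libraries, and its log2 fold change was 3.21 ± 0.14 (SE; edgeR adjusted p = 9.17e-07). It was the steadiest member among controls, with a coefficient of variation of 14.4%.

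Ifit3, known as a partner of other IFIT proteins, had the largest rise of the family. It stood at 418.2, 270.8 and 276.5 CPM in the 3 AAV-iIL12 libraries and at 30.52, 19.68, 11.2 and 9.793 CPM in the 4 AAV-iLuc libraries, in order of replicate number. The groups did not overlap, although controls alone spread 3.12-fold from lowest to highest. Group means were 17.8 ± 9.54 CPM for controls and 322 ± 83.5 CPM for treated libraries, and Ifit3 rose by 4.17 ± 0.34 in log2 (SE; edgeR adjusted p = 1.03e-05). Its coefficient of variation was 53.6% in controls and 26.0% in AAV-iIL12 libraries.

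Ifit3b, the copy of Ifit3, followed the same order of libraries at a lower level. It stood at 96.32, 64.25 and 65.93 CPM in AAV-iIL12 libraries and at 7.54, 5.922, 3.157 and 2.835 CPM in AAV-iLuc libraries. AAV-iLuc replicates 3 and 4 were the low pair, as for Ifit3. Its means were 4.86 ± 2.26 CPM for controls and 75.5 ± 18.1 CPM for treated libraries, and Ifit3b rose by 3.95 ± 0.27 in log2 (SE; edgeR adjusted p = 4.28e-06). Of all stretches of 100 bases in Ifit3 transcripts (GENCODE vM21), 31.7% also occur in Ifit3b, and 27.4% of those in Ifit3b occur in Ifit3. Reads from such stretches cannot be assigned to one copy, so the split of counts between the copies is uncertain. Counted as 1 gene, the copies rose by 4.13 on the log2 scale.

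Ifit1, the cap-sensing member, had the smallest rise of the 5 tested. It stood at 171.1, 103.6 and 111.2 CPM in AAV-iIL12 libraries and at 24.96, 21.77, 12.45 and 13.4 CPM in AAV-iLuc libraries. Controls fell into a higher pair, replicates 1 and 2, and a lower pair, replicates 3 and 4, and neither reached the treated libraries. Mean levels were 18.1 ± 6.18 CPM for controls and 129 ± 37.0 CPM for treated libraries, and Ifit1 rose by 2.82 ± 0.25 in log2 (SE; edgeR adjusted p = 1.50e-05).

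Ifit1bl2 and Ifit1bl1, both Ifit1-like genes, were near the limit of detection. Ifit1bl2 had 26, 14 and 15 counts in AAV-iIL12 libraries and 3, 4, 1 and 0 counts in AAV-iLuc libraries. Its fitted log2 fold change was 3.19 ± 0.59 (SE; edgeR adjusted p = 0.00153), which rests on 8 control counts in all. Ifit1bl1 had 6, 3 and 6 counts in AAV-iIL12 libraries and 0, 0, 1 and 1 in AAV-iLuc libraries. Its summed counts, 15 against 2, gave a ratio of 10.4 per unit of library size, with an exact 95% interval of 2.42 to 93.9 that covers counting error only. The log2 of that ratio was 3.38 with all libraries. With each library left out it ran from 2.94 without AAV-iLuc replicate 1 to 4.01 without AAV-iLuc replicate 3. Ifit1 stood 154 times as high as Ifit1bl2 per kilobase in AAV-iIL12 libraries and 212 times as high in controls, although their starts share the 127-base interval printed above.

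**Figure D2:**
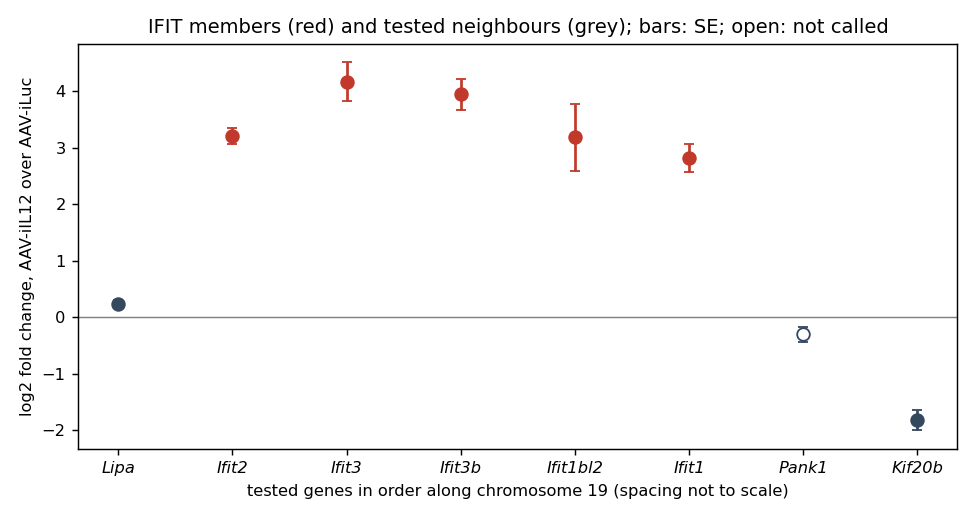
Fitted log2 fold change, AAV-iIL12 over AAV-iLuc, with its standard error, for the 5 tested IFIT genes (red) and the 3 tested neighbours (grey) in their order along the chromosome, with spacing not to scale and an open point for a gene not called. The tested IFIT genes lie between 2.82 and 4.17, while Lipa, Pank1 and Kif20b on either side lie at 0.23, -0.30 and -1.83.

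The tested genes next to the cluster had smaller or opposite log2 fold changes. Within 500 kb on either side the files list 29 other genes, of which 11 had any count and 3 were tested. Of the tested neighbours 1 was called higher and 1 lower. Over all genes tested, 23.5% were called higher and 23.7% lower, and 3 neighbours are too few to set against those shares. Lipa, the lysosomal acid lipase, ends 23220 bp before the cluster. Its mean level was 139 ± 12.6 CPM among treated libraries and 119 ± 9.0 CPM among controls, with a log2 fold change of 0.23 (edgeR adjusted p = 0.0311). That call ended without AAV-iIL12 replicate 1 (edgeR adjusted p = 0.11), AAV-iLuc replicate 3 (0.0552) or AAV-iLuc replicate 4 (0.0641). It also ended when library size alone (0.141) or the upper quartile (0.115) set the scale, by edgeR adjusted p. Pank1, a pantothenate kinase, 156931 bp after the cluster, did not pass the test, with a log2 fold change of -0.30 (edgeR adjusted p = 0.0872). Under those same scalings Pank1 was called lower (edgeR adjusted p = 0.0339 and 0.0394), so that 0 neighbours were called higher and 2 lower. Calls over the whole set of genes shifted likewise, with 36.0% and 38.5% of them higher in place of 49.8%. Other settings let sparse neighbours be tested. Without AAV-iIL12 replicate 3, 3 neighbours were called higher and 1 lower, and without the low-count filter 2 higher and 1 lower. Kif20b, a mitotic kinesin, 272352 bp after it, fell from 42.7 ± 7.61 to 12 ± 2.56 CPM (edgeR adjusted p = 2.83e-05). Slc16a12, the nearest gene after the cluster to have any count, had 2 counts in AAV-iIL12 and 4 in AAV-iLuc libraries.

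To compare levels between members, CPM was divided by exonic length in kilobases. On this scale Ifit3 was highest in AAV-iIL12 libraries at 184 ± 47.9 CPM per kb, followed by Ifit2 at 97.0 ± 18.9, Ifit1 at 48.4 ± 13.9 and Ifit3b at 37.8 ± 9.03. In AAV-iLuc libraries Ifit2 stood at 10.5 ± 1.51 CPM per kb, Ifit3 at 10.2 ± 5.47, Ifit1 at 6.83 ± 2.33 and Ifit3b at 2.43 ± 1.13. Ifit3 and Ifit2 thus did not differ beyond their spread in controls, and neither did Ifit1 and Ifit3b among the treated libraries taken as separate groups of values. Within each treated library, though, the ratio of Ifit3b to Ifit1 was 0.747, 0.824 and 0.787 on full exonic length. Of stretches of 100 bases, 72.59% occur in no other gene for Ifit3b, 68.35% for Ifit3 and 96.71% for Ifit1. Reads from shared stretches may go uncounted, so levels per kb of Ifit3 and Ifit3b may be too low. The order of Ifit1 and Ifit3b is therefore uncertain. Ifit1bl2 at 0.314 and Ifit1bl1 at 0.127 CPM per kb were last in treated libraries.

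The members did not keep the same shares of the family in all libraries. Shares rest on full exonic length, so those of Ifit3 and Ifit3b carry the same limit. Ifit3 made up 50.8%, 49.6% and 49.6% of the family's summed level per kb in AAV-iIL12 libraries, and 40.3%, 34.7%, 28.8% and 25.8% in AAV-iLuc libraries. Ifit2 made up 25.2%, 27.6% and 26.9% in AAV-iIL12 libraries and 29.3%, 30.8%, 42.9% and 44.3% in AAV-iLuc libraries. The larger share of Ifit3 was thus found in every treated library, and the share of Ifit2 was largest in AAV-iLuc replicates 3 and 4.

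**Figure D3:**
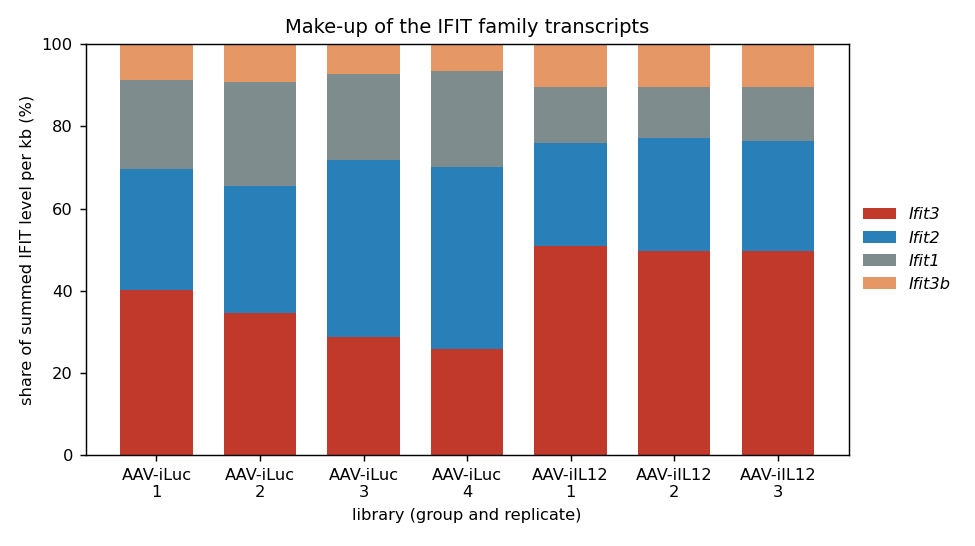
Share of the summed level per kb of the family taken by Ifit2, Ifit3, Ifit3b and Ifit1 in each of the 7 libraries, in percent; Ifit1bl1 and Ifit1bl2, which each took at most 0.2%, are not drawn. Ifit3 takes between 49.6% and 50.8% in the 3 AAV-iIL12 libraries and between 25.8% and 40.3% in the 4 AAV-iLuc libraries.

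Unequal rises were tested with ratios between members inside each library, which need no scaling between libraries. A ratio could be formed for all pairs of Ifit2, Ifit3, Ifit3b and Ifit1, 6 pairs in all, but not with Ifit1bl2, which had 0 counts in AAV-iLuc replicate 4. Ifit3 over Ifit1 was 3.72, 3.98 and 3.79 per kb in AAV-iIL12 libraries and 1.86, 1.38, 1.37 and 1.11 in AAV-iLuc libraries. The difference in mean log2 ratio was 1.45 (two-sided exact permutation test over 35 splits, p = 0.0286, the smallest it can give, and 0.0857 after Benjamini-Hochberg adjustment over the 6 pairs). Ifit3 over Ifit2 was 2.02, 1.80 and 1.84 against 1.38, 1.13, 0.671 and 0.583, a difference of 1.10 in log2 (exact permutation p = 0.0571, adjusted 0.0857). For Ifit3b over Ifit1 the difference was 1.20 (exact permutation p = 0.0286, adjusted 0.0857), and for Ifit3b over Ifit2 it was 0.85 (exact permutation p = 0.0857, adjusted 0.103). For Ifit3 over Ifit3b it was 0.25 (exact permutation p = 0.0571, adjusted 0.0857), and for Ifit2 over Ifit1 it was 0.35 (exact permutation p = 0.229, adjusted 0.229). Groups overlapped only for Ifit2 over Ifit1, and no pair passed 0.05 after adjustment. Thus Ifit3 and Ifit3b were higher relative to Ifit1 and Ifit2 in every treated library, and the test over pairs did not separate the groups at this number of libraries.

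AAV-iIL12 replicate 1 was the highest treated library for every member, and AAV-iLuc replicate 1 was the highest control for Ifit2, Ifit3, Ifit3b and Ifit1. The 13 leukocyte markers summed to 34.3, 25.3 and 26.1 CPM in AAV-iIL12 libraries and to 33.8, 18.0, 15.0 and 17.2 CPM in AAV-iLuc libraries, so that both replicates numbered 1 were also highest there. Of the 13 markers 6 were tested and none passed (edgeR adjusted p between 0.0770 and 0.828). Cd68 held most of that sum, followed by Lyz2, with 166 counts in treated and 156 in control libraries. The other markers had few counts. All of the 13 markers but Csf1r had a higher mean CPM in AAV-iIL12 libraries, and the groups overlapped for all but Cd8a. Among those named after their values were seen, Cd8a had 16 and 0 counts and Cd3e 4 and 0, treated libraries first. In the same order Itgam stood at 0.323 and 0.234 CPM (17 and 18 counts) and Csf1r at 0.960 and 1.09 CPM (51 and 83 counts). The part of leukocytes in the IFIT levels was not tested. Without AAV-iIL12 replicate 1 the log2 fold changes of Ifit2, Ifit3, Ifit3b and Ifit1 were 3.04, 3.94, 3.74 and 2.57. Without AAV-iLuc replicate 1 they were 3.32, 4.57, 4.25 and 3.02, and these genes stayed called in both cases.

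AAV-iLuc replicate 1 was 1.31 times the mean of the other 3 controls for Ifit2, 1.57 times for Ifit1, 1.90 times for Ifit3b and 2.25 times for Ifit3. For 26 other interferon-induced antiviral genes this ratio had a median of 1.80, from 0.912 to 4.44. For 10 guanylate-binding proteins, large GTPases that are strongly induced by interferon gamma, it had a median of 10.6, from 4.18 to 89.2. The highest ratio, that of Gbp8, rests on a mean of 0.0548 CPM in AAV-iLuc replicates 2 to 4, near the floor. In those libraries Gbp5 and Gbp11 averaged 0.483 and 0.602 CPM, Gbp2 and Gbp7 11.4 and 15.8 CPM, and the IFIT genes 3.97 to 38.2 CPM. The 4 IFIT genes, with a median of 1.74, thus lay within the range of the other antiviral genes and below every guanylate-binding protein gene in this 1 library. A single library allows no test of that difference.

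**Figure D4:**
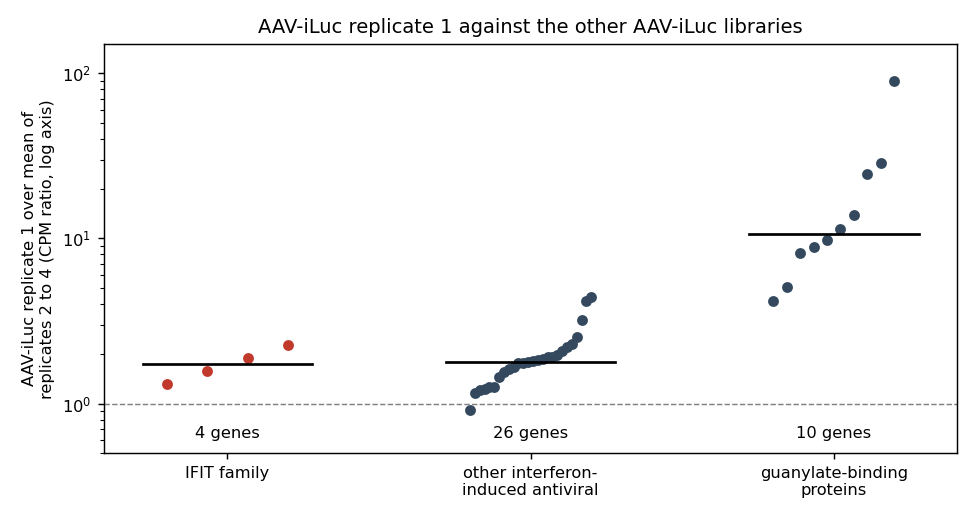
Ratio of AAV-iLuc replicate 1 to the mean of AAV-iLuc replicates 2 to 4 on a log axis, with 1 point for each tested gene of 3 lists, a bar at each median and a dashed line at 1. The 4 IFIT genes lie between 1.31 and 2.25 and the 10 guanylate-binding protein genes between 4.18 and 89.2. The highest point is Gbp8, which averaged 0.0548 CPM in AAV-iLuc replicates 2 to 4, near the floor.

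Of the genes through which interferon signals reach IFIT promoters, 6 of 7 interferon receptor and ISGF3 genes rose and none fell, with a median log2 fold change of 1.09. Of all genes tested, 23.5% were called higher and 23.7% lower. Stat2, a subunit of ISGF3, rose from 29.2 ± 14.7 to 296 ± 32.1 CPM (edgeR adjusted p = 1.20e-05). Usp18, which dampens type I interferon receptor signalling, rose from 5.32 ± 2.98 to 77.3 ± 29.1 CPM, and Ifnar2, a chain of that receptor, from 16.8 ± 1.14 to 35.7 ± 3.36 CPM (edgeR adjusted p = 2.06e-05 and 9.13e-06). In the interferon gamma axis 3 of 5 tested genes rose and 1 fell, against those same shares of all genes. Irf1 rose by 4.27 ± 0.61 on the log2 scale (SE; edgeR adjusted p = 0.000313), or by 5.38 without AAV-iLuc replicate 1. Socs1, a feedback inhibitor, rose by 4.03, and Jak2, a kinase of the gamma receptor, by 1.28, while the receptor chain Ifngr2 fell by 0.23 (edgeR adjusted p = 2.50e-06, 1.19e-06 and 0.00242).

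RNA of the ligands was scarce in these sorted cells. Of 20 type I and type III interferon genes, 4 had any count and these made 8 counts in all 7 libraries, 6 in AAV-iIL12 and 2 in AAV-iLuc. Ifnab had 4 counts against 0 and Ifnz 2 against 0. Ifnb1, named here after its counts were seen, had 0 counts in all libraries, which allows a level of up to 0.0566 CPM over the 3 AAV-iIL12 libraries and 0.0407 CPM over the 4 AAV-iLuc libraries. Ifng, too sparse to be tested, had 32 counts in AAV-iIL12 libraries and 1 in AAV-iLuc libraries. Other cells of the tumour were not measured here.

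A list of 14 genes for RNA and DNA sensing upstream of IRF3, the factor that can induce Ifit genes without interferon, also held Irf3 and Irf7. Of these genes 9 rose and 3 fell, with a median log2 fold change of 0.78. Of all genes tested, 23.5% rose and 23.7% fell. Dhx58, a regulator of RNA sensing, rose from 14.1 ± 7.0 to 234 ± 30.9 CPM, Irf7 from 6.02 ± 3.23 to 98.3 ± 23.0 CPM and Tmem173, which encodes STING, from 40.9 ± 3.88 to 79.6 ± 0.898 CPM (edgeR adjusted p = 5.35e-06, 7.30e-06 and 6.90e-06). The adaptor gene Mavs, the signalling gene Traf3 and the DNA sensor Cgas fell by 0.23, 0.22 and 0.53 on the log2 scale (edgeR adjusted p = 0.0185, 0.00692 and 0.0219). Mavs was no longer called once AAV-iIL12 replicate 1 (edgeR adjusted p = 0.0534) or replicate 2 (0.0731) was left out. The same held for Cgas once any of 3 libraries was left out, namely AAV-iIL12 replicate 1 (edgeR adjusted p = 0.0681), AAV-iLuc replicate 1 (0.0514) and AAV-iLuc replicate 3 (0.0585).

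**Figure D5:**
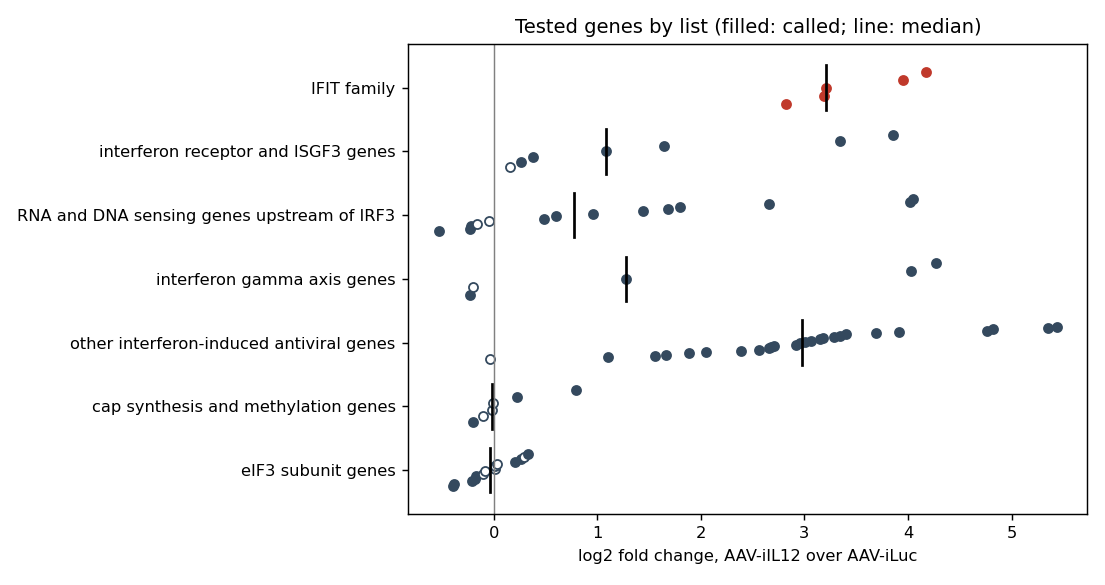
Log2 fold change, AAV-iIL12 over AAV-iLuc, of each tested gene in the IFIT family and in 6 gene lists, from the receptor genes to the eIF3 subunits, with filled points for called genes and a line at each median. The IFIT genes lie between 2.82 and 4.17, the other antiviral genes have a median of 2.98 and the cap and eIF3 genes have medians of -0.01 and -0.03.

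Ifit1 reads the methylation of the messenger RNA cap, so genes that build the cap were followed. Of 6 such genes 2 rose, 1 fell and 3 did not pass, with a median log2 fold change of -0.01. Calls in either direction were made for 47.2% of all genes tested, so the share among cap genes was near that of all genes. Cmtr1, which methylates the first nucleotide of the cap, rose from 17.6 ± 1.85 to 30.6 ± 2.86 CPM, or by 0.80 in log2 (edgeR adjusted p = 0.000120). Pcif1, which adds a methyl group to a cap-adjacent adenosine, rose by 0.23, and Rnmt, which methylates the cap guanosine, fell by 0.20 (edgeR adjusted p = 0.00755 and 0.0189). The Pcif1 call ended with library size only (edgeR adjusted p = 0.0823). Rnmt was no longer called once AAV-iIL12 replicate 1 (edgeR adjusted p = 0.0528) or replicate 3 (0.0596) was left out, or with no low-count filter (0.0738).

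Subunits of eIF3, the translation factor that IFIT proteins have been found to bind, moved little and in both directions. Of 14 subunit genes 3 rose, 5 fell and 6 did not pass, with a median log2 fold change of -0.03. Eif3b and Eif3l fell by 0.39 and 0.38, and Eif3f rose by 0.34 on the log2 scale (edgeR adjusted p = 0.00185, 0.000439 and 0.00105). Eif3e and Eif3k rose by 0.21 and 0.26 (edgeR adjusted p = 0.0170 and 0.00586), and the Eif3e call was lost without AAV-iIL12 replicate 1 (0.0513) and when library size alone (0.133) or the upper quartile (0.0894) set the scale. Eif3a, the most abundant, stood at 625 ± 30.1 and 660 ± 12.4 CPM (edgeR adjusted p = 0.262, or 0.0217 with library size only). Without AAV-iIL12 replicate 1 the calls among the subunits numbered 4 in place of 8. The share among all genes tested was again 47.2%.

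Among other interferon-induced antiviral genes 25 of 26 tested rose, none fell, and the median log2 fold change was 2.98, against 3.58 over the 4 IFIT genes with at least 1 CPM in 3 libraries. The exception was Ifitm2, named after its values were seen, at 75.1 ± 2.51 and 76.7 CPM (edgeR adjusted p = 0.679). Oas3 and Mx1, an activator of RNA decay and a virus-blocking GTPase, rose by 5.43 and 4.77 on the log2 scale (edgeR adjusted p = 1.19e-06 and 1.67e-06), where the highest IFIT value was 4.17. The kinase Eif2ak2 (PKR), which halts translation on sensing double-stranded RNA, rose by 1.56, and Ifitm3, the gene of the list with the highest mean over all 7 libraries, by 2.71 (edgeR adjusted p = 2.97e-06 and 5.51e-06). All 10 tested guanylate-binding protein genes rose, with a median log2 fold change of 5.79, or 7.75 without AAV-iLuc replicate 1. For this list and the antiviral list, the share called higher over all genes tested was 23.5%. Gbp2, Gbp5 and Gbp11 rose by 5.73, 6.10 and 6.62 in log2 with all libraries and by 7.30, 8.22 and 8.12 without that one. Gbp8 rose by 6.83, and its control level lay almost wholly in that library. Gbp5 and Gbp8, and Ifi44 in the antiviral list, passed the low-count filter only through the treated group, so their calls are a description. The counts of both lists include them. The difference between these lists and the IFIT family was not tested.

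Genes whose profile over the 7 libraries lay closest to that of the family were found by the root mean square difference of centred log2 CPM, over 10573 genes. Closest to the mean of the 5 tested members were the complement gene C4b (0.12), the ubiquitin-like gene Isg15 (0.13) and the class I MHC genes H2-K1 (0.14), H2-D1 (0.14) and H2-Q4 (0.15). That mean gives Ifit1bl2, with its 8 control counts, the same weight as each other member. The nearest genes without Ifit1bl2 were not sought. C4b stood at 250 ± 74.0 CPM in controls and 2521 ± 441 CPM in AAV-iIL12 libraries, and Isg15 at 8.96 ± 3.18 and 95.2 ± 23.2 CPM. These libraries form 2 groups, so likeness on this scale mostly reads the size of the difference between them.

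The members did not have the same nearest genes. Ifit2 lay closest to Pla2g16 (0.08), Rnf19b (0.11) and Trafd1 (0.13). Ifit3 lay closest to the RNA-sensing regulator Dhx58 (0.13), the pyroptosis effector Gsdmd (0.13) and Irf7 (0.14), and Ifit3b to Dhx58 (0.12), the cytidine deaminase Apobec3 (0.14) and Irf7 (0.15). Ifit1 lay closest to Oas2 (0.14), Mx2 (0.17) and the RNA sensor Ifih1 (0.17). Ifit1bl2, with its few counts, had no gene closer than Gm20559 (0.27), followed by Ccl5 (0.27) and Egr2 (0.30). Between members the smallest difference was that of Ifit3 and Ifit3b (0.16) and the next that of Ifit2 and Ifit1 (0.30).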

How the data were processed

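The deposited values are raw fragment counts per gene, which the authors made with featureCounts 1.6.0 from exons summed by gene, reverse-stranded and paired-end, on GENCODE vM32, per the file headers. The command in those headers does not switch on multi-mapping reads. STAR 2.7.9a, FastQC 0.11.8, GRCm39, edgeR and limma are named in the submitters' processing notes. Symbols came from GENCODE vM21 by gene identifier, which matched 52029 of 56953.

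The groups were compared on the deposited counts with edgeR 4.0.16 in R 4.3.3 (quasi-likelihood F test, TMM, filterByExpr, Benjamini-Hochberg at 0.05 over 13990 genes), with standard errors derived from the F statistic. The script was tested on simulated data. The series' design text counts libraries as mice, and no 2 libraries of one group agreed within sampling noise. Levels are mean ± SD. The labels give no batch. Intervals cover counting error only.

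Members and gene lists were chosen with earlier results of these data known, and 1 gene of the interferon receptor and ISGF3 list is not reported here. From each list the text names the 3 called genes with the smallest p, the most abundant tested gene and those called against the majority. From a list with no call it names the 2 genes with most counts. For likeness it names the 5 genes nearest to the family mean (mean log2 CPM at least 2, prior count 2) and the 3 nearest to each member, and beside the cluster the nearest tested gene on each side and any called one. Ratios used a two-sided exact permutation test of the absolute difference. The first run doubled the smaller tail instead, which cannot go below 0.0571, and the definition was changed after its values were seen. Alternatives used limma 3.58.1 and DESeq2 1.42.0 among others. Protein sequences were not used here.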

Additional observations from a re-analysis of the deposited data

Results flagged for a closer look

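Among 55 genes checked for a library standing apart from the other 3 in the AAV-iLuc group, 8 were picked out. Chance alone picks out about 1 group in 20 where values are normally spread and independent. These genes share the same 4 libraries, and many are induced by interferon, so the 8 are not separate departures from that rate. In 6 of the 8 genes the library was AAV-iLuc replicate 1. Ifit2 stood at 49.97 CPM there, against 39.37 CPM in the next library. Stat2 stood at 51.17 CPM in the same library, against 23.91 CPM in the next. Irf1 stood at 120.7 CPM, against 24.48 CPM. Gbp5 stood at 6.708 CPM, against 0.987 CPM. Gbp8 stood at 4.888 CPM, against 0.165 CPM. Gbp11 also stood at 4.888 CPM, against 0.932 CPM. In the other direction, Kif20b was low in AAV-iLuc replicate 2 at 31.31 CPM, against 45.56 CPM in the next library. Egr2 was low in AAV-iLuc replicate 4 at 1.082 CPM, against 2.912 CPM in the next.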

How the results depend on the processing

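Of 320 recomputed values of the results that answer a comparison, 308 kept their direction and their side of the threshold or stayed within 1.5 times, and 12 moved further. All 12 were counts among eIF3 subunits and cluster neighbours. Calls among eIF3 subunits, 8 as reported, numbered 5 without the low-count filter, 5 with DESeq2, 5 with the replicate block, 4 at a threshold of 0.01 and 4 to 7 with each library left out. Calls among neighbours, 2 as reported, numbered 1 with the replicate block, 1 at a threshold of 0.01 and 1 to 4 with each library left out. Ifit2, Ifit3, Ifit3b and Ifit1 stayed called higher in every alternative that held them. Over all genes, 2391 to 3450 were called higher in the alternatives, against 3292 of 13990 (23.5%) as reported. Ifit1bl2 was also called wherever it was tested, and Ifit1bl1 without the low-count filter (edgeR adjusted p = 0.0179). At their counts these 2 calls are a description only. With each library left out, the log2 fold change ranged from 3.04 to 3.32 for Ifit2, 3.94 to 4.57 for Ifit3, 3.74 to 4.25 for Ifit3b, 2.57 to 3.02 for Ifit1 and 2.77 to 3.73 for Ifit1bl2. Over all tested genes, same-numbered libraries had correlations of deviations of 0.088, 0.034 and -0.049, and the other pairs from -0.108 to 0.073. These values do not settle whether replicate numbers pair the libraries. The replicate block lowered the standard error from 0.139 to 0.066 for Ifit2, 0.341 to 0.172 for Ifit3, 0.271 to 0.163 for Ifit3b and 0.246 to 0.156 for Ifit1. No AAV-iIL12 library carries number 4, so AAV-iLuc replicate 4 adds nothing to the difference fitted in that model. The smaller standard errors thus rest on fewer libraries and do not show that the numbers pair them. With the replicate block the IFIT log2 fold changes were 3.17 for Ifit2, 4.03 for Ifit3, 3.78 for Ifit3b, 2.71 for Ifit1 and 2.78 for Ifit1bl2, and 5660 genes in all were called against 6608. Of 784 recomputed values of single genes named beside the family, 754 kept their call, 26 lost it and 4 gained one, in Lipa, Pank1, Mavs, Cgas, Rnmt, Pcif1, Eif3a and Eif3e. The replicate block ended the calls of Lipa (edgeR adjusted p = 0.0684), Mavs (0.0781), Rnmt (0.0758) and Eif3e (0.0570). Of all calls 49.8% were higher as reported, 36.0% with library size only and 38.5% with upper quartile scaling. Doubling the smaller tail, the definition used first, gave the pairs of Ifit3 or Ifit3b an exact permutation p of 0.0571 (adjusted 0.0686), the smallest p that definition can give with 35 splits, so no pair could have passed under it. With 0 to 4 counts a control library, depth limits Ifit1bl1 and Ifit1bl2.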
